A study of Mus musculus with 6 samples.

Results

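The proteasome genes of mouse bone marrow mesenchymal stem cells are described here, in cells under osteogenic induction with melanin-concentrating hormone (MCH) and without it. Members were the rows of the deposited table whose gene name begins with Psma to Psmg followed by a digit. There were 51 such rows of 19353, and 48 of them had enough reads to be tested. Of the 51, 48 code for parts, regulators or assembly factors of the proteasome. The other 3 were Psmc3ip, a meiotic recombination factor that is no proteasome subunit, and the pseudogenes Psmb6-ps2 and Psmb7-ps2. Psma8, the alpha subunit of the testis, is not among the 51 rows and was not analysed here.

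The proteasome is the protease that breaks down proteins tagged with ubiquitin. Its 20S core is a barrel of alpha and beta rings, with the cutting sites on 3 of the beta subunits. The 19S particle caps the barrel, where its ATPases unfold the substrate and its other subunits bind ubiquitin and remove it. Interferon signalling brings in replacement catalytic subunits, which form the immunoproteasome and favour peptides for display on MHC class I. In osteoblast lineage cells, the proteasome is known as the route by which the transcription factor Runx2 is degraded.

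The MCH group was 3 libraries of wild-type purified primary bone marrow cells, labelled mesenchymal stem cells, that received 0.5 µM MCH in the induction medium. The Control group was 3 libraries of the same cells without MCH. All 6 samples had 50 µM ascorbic acid, 10 mM β-glycerophosphate, 100 nM dexamethasone and 10% fetal bovine serum, and were sampled on day 9 per the titles or day 8 per the design text. The labels name no separate animals or cultures, so a p-value sets the groups against the spread of these 6 samples, part of which may be technical. The labels give neither the age nor the sex of the mice.

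Polyadenylated RNA was counted at 16521980 to 18803949 reads per library, which limits the precision of the lowest genes. Mesenchymal markers were present at unequal levels, and 12 of 12 were tested. Col1a1 had 64369 to 95948 reads per library, while Thy1 had 36 to 59. The leukocyte antigen gene Ptprc had 0 to 2 reads per library, and 6 of 13 leukocyte marker rows passed the filter on low counts. Among those, Cd14 had 1538 to 2388 reads and Cd68 549 to 934, more than Thy1. The macrophage genes Ctss, Adgre1, C1qb and Lyz2 were higher in MCH replicate 3 than in any other library, at 92, 50, 31 and 176 reads. Over the other 5 libraries they had 5 to 23, 0 to 11, 0 to 9 and 52 to 110 reads. MCH replicate 1 was the MCH library closest to Control, at -10.9 on the main principal component. MCH replicates 2 and 3 were at -32.3 and -24.8, and the Control libraries at 18.9 to 25.5.

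With MCH, 13 of the 48 tested members rose and none fell (edgeR's quasi-likelihood F test, with Benjamini-Hochberg adjustment over all genes and a threshold of 0.05). Over all 13662 genes tested, 3.64% were higher and 5.4% lower by the same rule, 9.04% in either direction. At an unadjusted p under 0.05, 31 members were higher and 0 lower, against 12.9% of all genes higher, and the count of members lower was also 0 with DESeq2 and with limma-voom. The log2 fold change (MCH minus Control) was above 0 in 43 of 48 members, against 50.3% of all genes. Its median was 0.25 for the members, a difference of 18.5%, and 0.00 for all genes. In bulk samples, a difference in the share of a cell type and a difference in RNA per cell cannot be told apart.

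The 12 genes of the proteasome itself that rose lay in the core, the cap and the assembly group. They were Psma1, Psma3, Psma4, Psmb3, Psmb7, Psmc6, Psmd1, Psmd12, Psmd14, Psmg2, Psmg3 and Psmg4. The immunoproteasome, with 3 tested genes, and the group of activators and inhibitors, with 6, held no called gene, against 9.04% of all genes. At that share, groups of this size can hold none. In 26 of 48 members all MCH libraries were above all Control libraries, against 16.1% of all genes, and in 0 members all were below, against 16.6%. The 48 proteasome genes together took 0.710%, 0.778% and 0.764% of the counted reads in MCH replicates 1 to 3, against 0.675%, 0.630% and 0.635% in Control replicates 1 to 3. The share was higher in every MCH library than in any Control library, with MCH replicate 1 and Control replicate 1 nearest to each other.

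The number of calls rested on single libraries, in the members and over all genes. Without MCH replicate 1 it was 26 members. Without MCH replicate 2 it was 1, without MCH replicate 3 it was 0, without Control replicate 1 it was 8, and it was 1 without Control replicate 2 and 1 without Control replicate 3. In the same order, 5.19%, 0.834%, 0.468%, 2.06%, 0.795% and 0.765% of all genes were called higher, against 3.64% with all libraries. The member that remained in 5 of these 6 fits was Psma3, whose adjusted p was 0.0592 without MCH replicate 3. The other 12 called members each kept their call in 1 or 2 of the 6 fits. The median of the tested members was 0.21 to 0.30 over the same fits. With all libraries, limma-voom did not call Psma1, Psmb3, Psmg2, Psmg4 or Psmc3ip. MCH replicate 1 was the lowest of the MCH libraries in 41 of 48 members, against 38.6% of all genes. The authors' deposited table marks 0 members as UP or DOWN, with q-values of 0.0839 to 1.

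**Figure D1:**
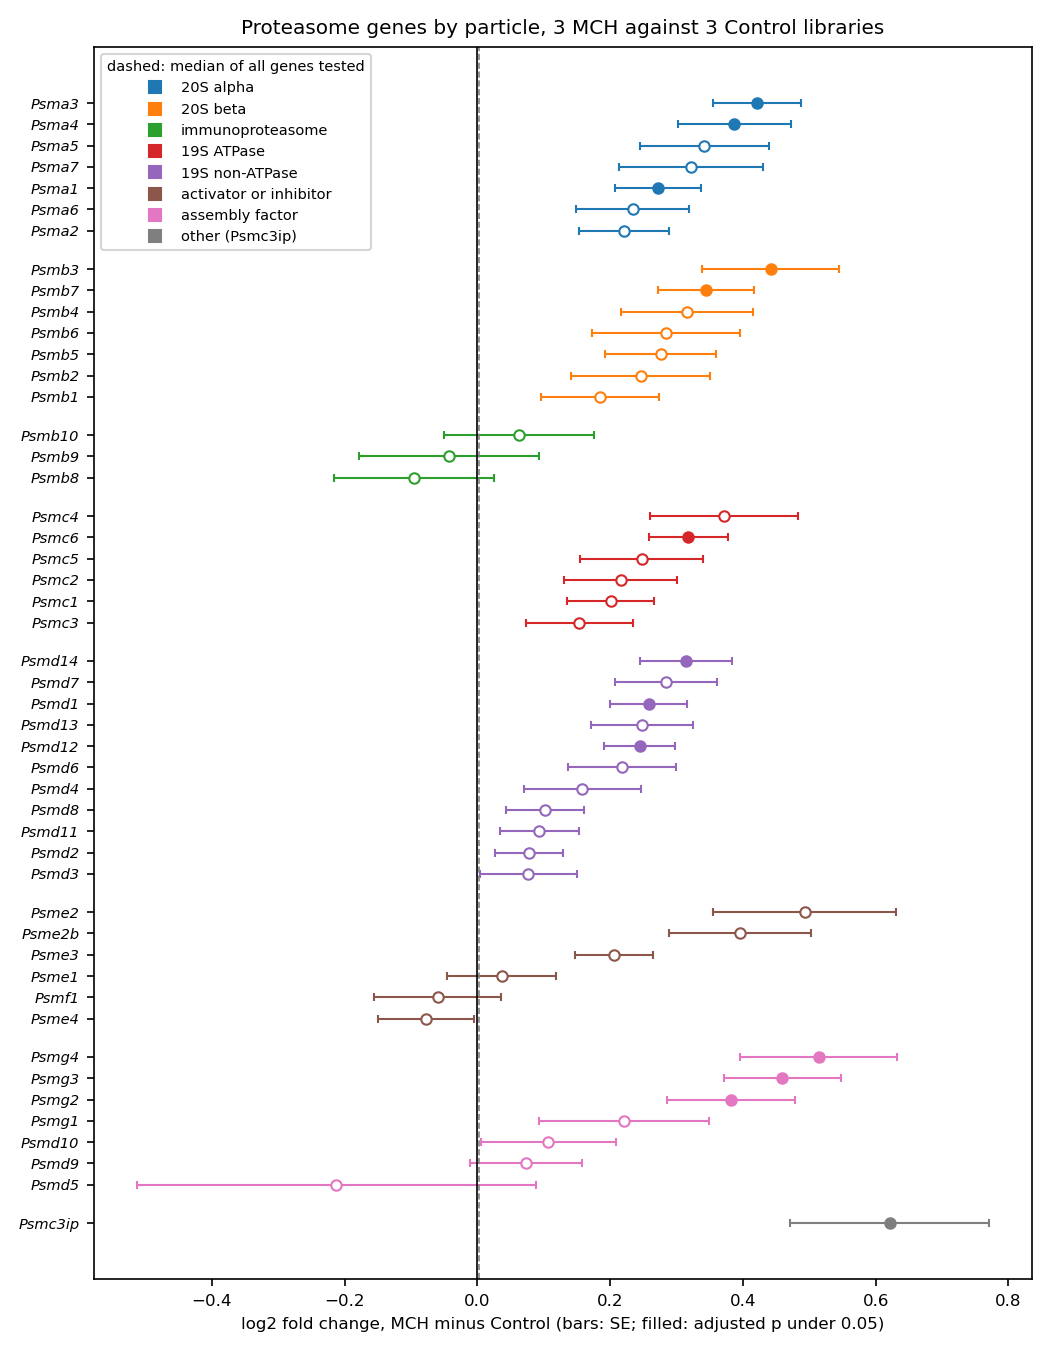
Log2 fold change of each tested member (MCH minus Control, x axis) with its SE, by particle; filled points have an adjusted p under 0.05 and the dashed line is the median of all genes tested. The alpha, beta and 19S genes all lie right of 0, while the immunoproteasome genes lie between -0.10 and 0.06.

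All 7 genes of the alpha ring, which forms the gated ends of the barrel, were above 0, from 0.22 to 0.42 with a median of 0.32. In 6 of the 7, all MCH libraries were above all Control libraries, against 16.1% of all genes, and 3 rose, against 3.64%. Psma3 stood at 74.3, 80.5 and 78.5 CPM (counts scaled to library size) in MCH replicates 1 to 3, against 57.9, 60.0 and 56.4 CPM in Control. All MCH values were above all Control values, with little spread inside either group. Its log2 fold change was 0.42 ± 0.07 (SE; adjusted p = 0.0113).

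Psma4, whose yeast counterpart holds the tail that closes the gate, had 207, 235 and 237 CPM with MCH, against 189, 173 and 158 CPM in Control. No MCH value reached down into the Control range, and MCH replicate 1 was the closest to it. The gene rose by 0.39 ± 0.08 on the log2 scale (adjusted p = 0.0322). Psma1, an alpha subunit, had 196, 213 and 218 CPM with MCH, against 181, 167 and 171 CPM in Control, and rose by 0.27 ± 0.06 (adjusted p = 0.0412). Psma2, an alpha subunit, had 135, 150 and 145 CPM with MCH, against 130, 121 and 118 CPM in Control. Its groups did not overlap, but its log2 fold change of 0.22 ± 0.07, the smallest of the ring, did not pass (adjusted p = 0.0838). Psma5, Psma6 and Psma7 were 0.34, 0.23 and 0.32 and did not pass (adjusted p = 0.0704, 0.128 and 0.109). Of these, Psma7 alone overlapped, since MCH replicate 1 at 218 CPM lay below Control replicate 1 at 226 CPM.

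The 7 tested beta genes were also all above 0, from 0.18 to 0.44 with a median of 0.28. Of the 7, 2 rose, against 3.64% of all genes. Psmb3, a structural beta subunit, had 185, 237 and 217 CPM with MCH, against 170, 143 and 157 CPM in Control. All MCH libraries were above Control, and the gene rose by 0.44 ± 0.10 (adjusted p = 0.0388). Psmb7, which carries the trypsin-like site, had 204, 237 and 227 CPM with MCH, against 184, 172 and 170 CPM in Control. It rose by 0.34 ± 0.07 (adjusted p = 0.0281), again without overlap. The table also holds a pseudogene, Psmb7-ps2, whose transcript is 89% identical to that of Psmb7, but it had no more than 14 reads in any library.

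The other catalytic subunits did not pass the test. Psmb5, which carries the chymotrypsin-like site, had 75.4, 89.4 and 87.7 CPM with MCH, against 72.3, 66.4 and 69.9 CPM in Control. The groups did not overlap, and the log2 fold change was 0.28 ± 0.08 (adjusted p = 0.0812). Psmb6, which carries the caspase-like site, had 278, 354 and 329 CPM with MCH, against 297, 249 and 244 CPM in Control. Here MCH replicate 1 lay below Control replicate 1, and the log2 fold change was 0.28 ± 0.11 (adjusted p = 0.152).

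The 3 remaining tested beta genes are structural. Psmb1 had 496, 603 and 565 CPM with MCH, against 524, 460 and 480 CPM in Control. Its groups overlapped and its log2 fold change of 0.18 ± 0.09 was the smallest of the ring (adjusted p = 0.231). Psmb4 and Psmb2 were 0.32 and 0.25 (adjusted p = 0.0899 and 0.184). Psmb11, the beta subunit of the thymus proteasome, was too low to test, with 0 to 3 reads per library.

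**Figure D2:**
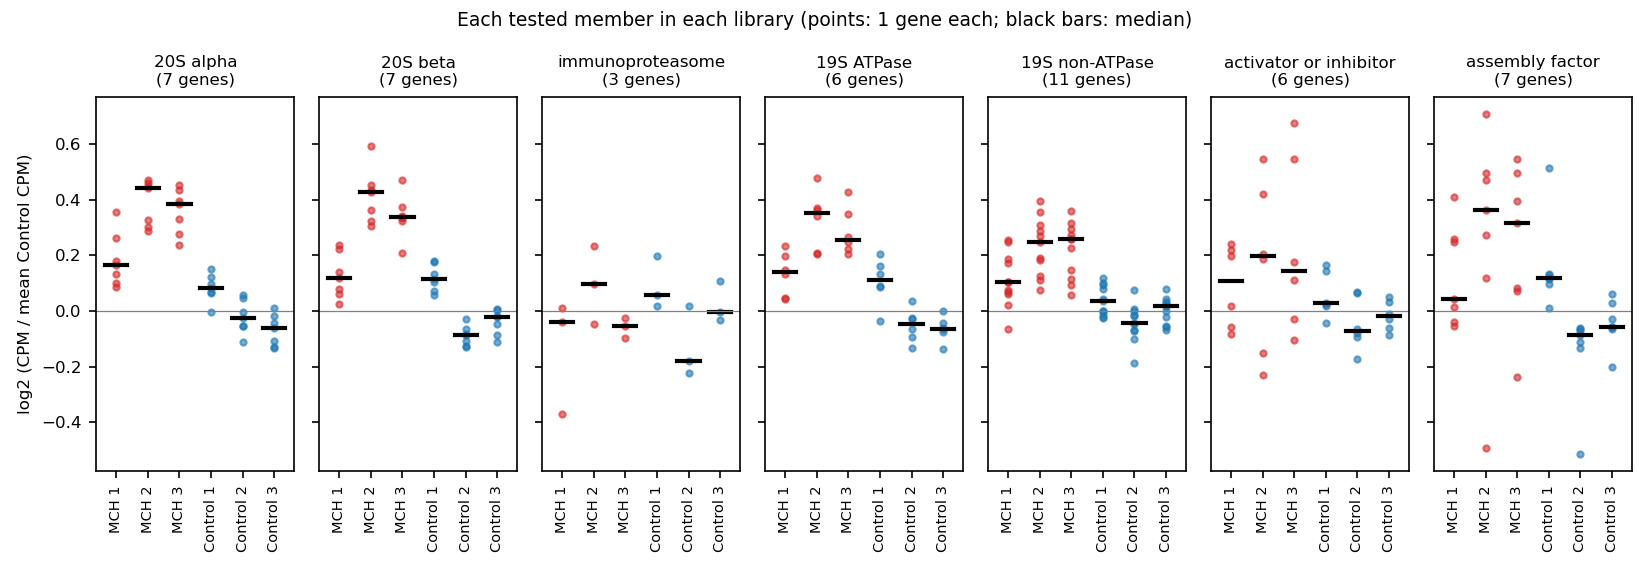
Log2 ratio of each tested gene's CPM to its Control mean (y axis) in each library (x axis), 1 panel per particle; a point is a gene and a bar the median of the panel's genes. In the core and 19S panels the medians of MCH replicates 2 and 3 stand above those of all Control libraries, and the median of MCH replicate 1 lies between.

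Promoters of a core gene that rose, Psma4, and of the catalytic gene Psmb5 follow, so that the letters of genes of the same particle can be compared. They were chosen with their values known. Each is 250 bases before to 50 after the gene's start in RefSeq on GRCm38.p6, 5′ to 3′ on the gene's own strand. Capitals mark matches, on either strand, to TGANNNNGC, the core of the antioxidant response element, which is bound by factors of the Nfe2 family that are known to drive proteasome genes. Psma4 lies at chr9:54950609-54950908 on the plus strand and Psmb5 at chr14:54617946-54618245 on the minus strand.
Psma4: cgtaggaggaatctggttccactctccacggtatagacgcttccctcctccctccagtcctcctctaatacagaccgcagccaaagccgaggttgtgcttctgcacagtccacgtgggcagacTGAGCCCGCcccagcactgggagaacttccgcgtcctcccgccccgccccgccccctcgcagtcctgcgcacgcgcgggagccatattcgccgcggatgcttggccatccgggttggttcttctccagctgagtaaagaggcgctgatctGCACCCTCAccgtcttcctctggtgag
Psmb5: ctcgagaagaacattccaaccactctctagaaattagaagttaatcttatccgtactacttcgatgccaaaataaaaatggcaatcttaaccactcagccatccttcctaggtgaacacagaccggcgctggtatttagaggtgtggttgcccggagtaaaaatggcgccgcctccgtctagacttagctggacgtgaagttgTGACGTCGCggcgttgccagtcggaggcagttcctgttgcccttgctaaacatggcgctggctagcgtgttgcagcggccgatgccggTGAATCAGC

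In Psma4 a match, TGAGCCCGC, began 127 bases before the start, and another lay after it on the opposite strand, printed as GCACCCTCA. In Psmb5 the match nearest before the start, TGACGTCGC, began 47 bases before it, and TGAATCAGC lay after it. A promoter was in the RefSeq table for 42 of the 49 protein-coding members, and 24 of the 42 (57.1%) held TGANNNNGC, against 41.3% of 32851 promoters of all genes. Among members with a promoter it was in 7 of the 11 called and in 17 of the 31 not called. CCAAT was in 35.7% of the members' promoters and in 37.4% of all promoters. The motifs were searched separately and on both strands, so that the same letters could count for more than a single motif. A match of letters is no evidence of binding.

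Of the 3 immunoproteasome genes, 1 was above 0 and the other two below. Their log2 fold changes were -0.10 to 0.06 with a median of -0.04, and in each the groups overlapped. No gene of the 3 was called, against 9.04% of all genes. None of the 3 had an unadjusted p under 0.05 in this fit, with DESeq2 or with limma-voom.

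Psmb8, which replaces Psmb5, had 22.0, 30.4 and 27.4 CPM with MCH, against 28.8, 28.7 and 27.7 CPM in Control. MCH replicate 1 was the lowest library and MCH replicate 2 the highest, and the log2 fold change was -0.10 ± 0.12 (adjusted p = 0.660). Without MCH replicate 1 it was 0.023. Psmb9, which replaces Psmb6, had 11.4, 10.95 and 10.6 CPM with MCH, against 13.0, 9.68 and 11.3 CPM in Control, so that the Control libraries spanned the MCH ones. Its log2 fold change was -0.04 ± 0.13 (adjusted p = 0.870), and 0.067 without Control replicate 1. Psmb10, which replaces Psmb7, had 30.5, 36.8 and 30.7 CPM with MCH, against 32.5, 27.6 and 33.7 CPM in Control. Its groups overlapped as well, with 0.06 ± 0.11 (adjusted p = 0.769), -0.031 without MCH replicate 2 and -0.021 without Control replicate 2.

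Each inducible subunit was then set against the constitutive one whose place it takes, as a ratio of FPKM (counts scaled by gene length and library size) within each library. Psmb8 was at 6.61%, 7.68% and 7.07% of Psmb5 in MCH replicates 1 to 3, against 9.0%, 9.79% and 8.99% in Control. All MCH ratios were below all Control ratios, with means of 7.12 ± 0.54% and 9.26 ± 0.46% (SD, n = 3 each). The log2 difference was -0.38 (exact permutation test over libraries, two-sided, p = 0.1). That is the smallest p that 3 against 3 can give, so the design cannot reach 0.05.

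Psmb10 was at 41.8%, 43.6% and 37.9% of Psmb7 with MCH, against 49.4%, 45.0% and 55.7% in Control. The MCH ratios were again all below the Control ratios, by -0.28 on the log2 scale (exact permutation p = 0.1). Psmb9 was at 2.02%, 1.52% and 1.58% of Psmb6 with MCH, against 2.15%, 1.92% and 2.28% in Control. Here MCH replicate 1 lay inside the Control range, and the log2 difference was -0.32 (exact permutation p = 0.2). Adjusted over the 3 pairs, the p-values were 0.15, 0.15 and 0.2. The sign was negative for every pair when any single library was left out. For Psmb8 to Psmb5 and Psmb10 to Psmb7 it could not turn, since all MCH ratios were below all Control ratios.

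The size of these ratios depends on the gene lengths behind the deposited FPKM. Those lengths, worked back from counts and FPKM, ran from 742 to 10339 bases over 49 members and were above the summed exons of GENCODE M21 in 37 of them. Per kilobase of the principal transcript in GENCODE M21, Psmb8 averaged 17.4% of Psmb5 with MCH and 22.6% in Control. On the same scale Psmb9 averaged 2.05% of Psmb6 with MCH and 2.53% in Control, and Psmb10 averaged 13.0% of Psmb7 with MCH and 15.8% in Control. The log2 differences between the groups were the same on both scales to 2 decimals, since a fixed length per gene cancels out.

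**Figure D3:**
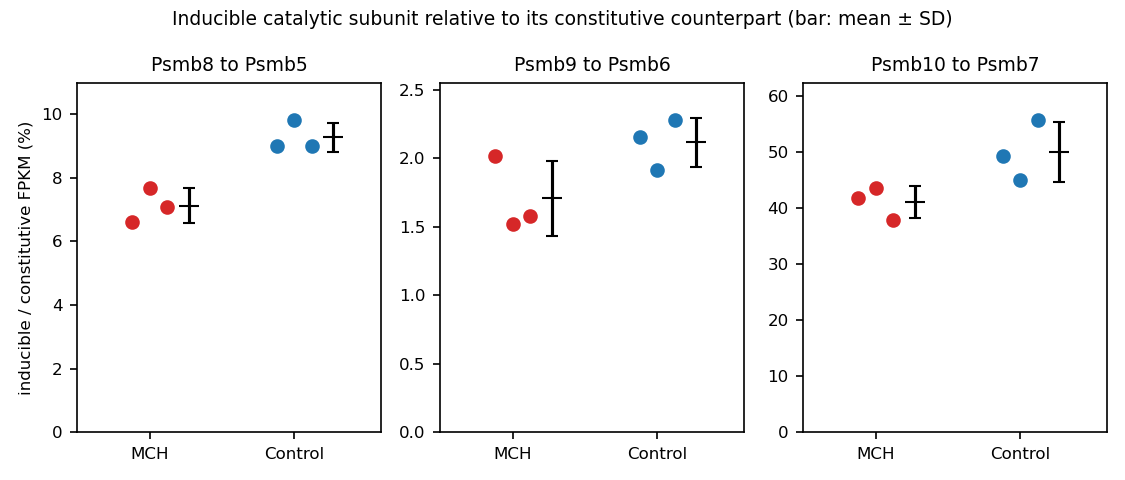
FPKM of each inducible catalytic subunit as a percentage of its constitutive counterpart (y axis) in the 3 MCH and 3 Control libraries, with mean and SD. For Psmb8 to Psmb5 and Psmb10 to Psmb7 all MCH points are below all Control points; for Psmb9 to Psmb6 the groups overlap.

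Psmb8 and Psmb9 lie in the MHC class II region on chromosome 17, next to the peptide transporter genes Tap1 and Tap2. Tap1 overlapped the Psmb9 locus by 212 bases on the opposite strand and lay 495 bases from Psmb8, and Tap2 lay 2072 bases beyond Psmb8. Their promoters are printed as the inducible counterpart of those above, from the same source. Capitals mark TGANNNNGC and also TTCNNNGAA, the gamma-activated site. Psmb8 lies at chr17:34197945-34198244 on the plus strand and Psmb9 at chr17:34187281-34187580 on the minus strand. The deposited loci are 34197721-34201454 for Psmb8 and 34181988-34187764 for Psmb9. Both printed windows lie wholly inside these loci, downstream of the deposited gene start.
Psmb8: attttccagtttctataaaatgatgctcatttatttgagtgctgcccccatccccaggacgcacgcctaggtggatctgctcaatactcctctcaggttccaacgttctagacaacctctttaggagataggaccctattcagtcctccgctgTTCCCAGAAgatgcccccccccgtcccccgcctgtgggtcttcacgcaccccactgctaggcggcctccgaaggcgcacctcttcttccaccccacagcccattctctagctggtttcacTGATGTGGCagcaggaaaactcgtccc
Psmb9: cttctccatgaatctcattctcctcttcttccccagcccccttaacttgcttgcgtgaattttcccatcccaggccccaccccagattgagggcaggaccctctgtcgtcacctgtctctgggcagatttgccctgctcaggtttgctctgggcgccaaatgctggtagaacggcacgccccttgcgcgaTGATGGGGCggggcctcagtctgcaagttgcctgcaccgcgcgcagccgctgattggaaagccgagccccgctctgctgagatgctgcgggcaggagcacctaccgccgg

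Psmb8 held TTCCCAGAA, a gamma-activated site by its letters, 97 bases before the RefSeq start, and TGATGTGGC after it. Psmb9 held TGATGGGGC 60 bases before its RefSeq start and no TTCNNNGAA in this window. Bases before the deposited gene starts were not searched for these 2 genes. TTCNNNGAA was in 3 of 42 members' promoters (7.14%), those of Psmd2, Psmg1 and Psmb8, against 8.3% of all promoters. The interferon response element, searched as GAAA, any 2 bases and GAAA, was in 5 of 42 (11.9%), against 3.44% of all. Neither Psmb8 nor Psmb9 was among the 5. As above, members were counted by gene and all promoters singly.

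Other genes of antigen processing and interferon signalling moved in both directions. Of 14 tested, 3 rose and 2 fell, against 3.64% and 5.4% of all genes. The median log2 fold change of the 14 was 0.08. Nlrc5, the transactivator of MHC class I genes, had 12.1, 10.4 and 9.69 CPM with MCH, against 20.95, 19.98 and 21.5 CPM in Control. The groups were far apart, and Nlrc5 fell by 0.95 ± 0.11 (adjusted p = 0.00364), a call that it kept in each of the 6 fits with a library left out. Tap2 fell by 0.33 ± 0.07 (adjusted p = 0.0329), whereas Tap1 was at -0.30 ± 0.19 with overlapping groups (adjusted p = 0.372). Calr, Pdia3 and Erap1, of which the first 2 are chaperones of MHC class I loading and the other trims peptides, rose by 0.38, 0.40 and 0.51 (adjusted p = 0.0308, 0.0410 and 0.0355). Tap2 and Erap1 kept their calls in 0 of the 6 fits with a library left out, Pdia3 in 1 and Calr in 2.

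Leukocyte markers, listed because leukocytes express the immunoproteasome, summed to 145, 155 and 188 CPM in the MCH libraries, against 173, 170 and 173 CPM in Control. Most of it was Cd14, at 90.2 to 96.99 CPM with MCH and 125 to 132 CPM in Control, and Cd68. MCH replicate 3 stood apart in some macrophage genes. Its Ctss was at 5.34 CPM, against 0.411 and 0.508 CPM in the other MCH libraries and 0.307 to 1.20 CPM in Control. Its Lyz2 was at 10.2 CPM, against 3.23 and 3.84 CPM in the other MCH libraries and 3.02 to 5.75 CPM in Control. It did not stand apart in Cd14, at 96.99 CPM against 96.6 CPM in MCH replicate 2. Nor did it in C1qa, with 3 reads there and in Control replicate 2. Without MCH replicate 3, Psmb8, Psmb9 and Psmb10 were at -0.12, -0.015 and 0.11, and their ratios to Psmb5, Psmb6 and Psmb7 differed by -0.38, -0.27 and -0.22. Of 6 tested, Cd3e rose and Cd14 fell, against 3.64% and 5.4% of all genes. The part of leukocyte RNA in the values with all libraries was not tested.

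The 19S ATPases form the ring that unfolds substrates and opens the gate. All 6 were above 0, from 0.15 to 0.37 with a median of 0.23, and 1 rose, against 3.64% of all genes. Psmc6 had 193, 212 and 209 CPM with MCH, against 160, 168 and 164 CPM in Control. The groups did not overlap, and the gene rose by 0.32 ± 0.06 (adjusted p = 0.0198). With a trend of transcript length and GC content removed, it was at 0.15 and not called. Psmc4 had the largest log2 fold change of the ring, 0.37 ± 0.11, but did not pass (adjusted p = 0.0820). Its values were 137, 167 and 161 CPM with MCH, against 138, 112 and 109 CPM in Control, so that MCH replicate 1 and Control replicate 1 were alike. Psmc3 had the smallest, 0.15 ± 0.08 (adjusted p = 0.264). Psmc1 had 220, 232 and 242 CPM with MCH, against 214, 197 and 193 CPM in Control, without overlap (0.20 ± 0.07; adjusted p = 0.1003). Psmc2 and Psmc5 were 0.22 and 0.25 and overlapped.

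All 11 non-ATPase genes of the 19S particle were above 0, from 0.08 to 0.31 with a median of 0.22. In 7 of them all MCH libraries were above all Control libraries, against 16.1% of all genes, and 3 rose, against 3.64%. Psmd14, the deubiquitinase that removes ubiquitin chains as the substrate enters, had 157, 174 and 162 CPM with MCH, against 142, 128 and 127 CPM in Control. It rose by 0.31 ± 0.07 (adjusted p = 0.0335). Psmd12, a scaffold subunit of the lid, had 154, 165 and 162 CPM with MCH, against 135, 135 and 135 CPM in Control. It rose by 0.24 ± 0.05 (adjusted p = 0.0332). The Control libraries were nearly equal here, and each MCH library lay above them.

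Psmd1, the large scaffold of the base, had 170, 169 and 172 CPM with MCH, against 141, 150 and 136 CPM in Control. MCH replicate 1 did not stand apart from the other MCH libraries for this gene, and it rose by 0.26 ± 0.06 (adjusted p = 0.0346). Psmd7, the partner of Psmd14, had 285, 323 and 314 CPM with MCH, against 274, 240 and 243 CPM in Control. The groups did not overlap, but 0.28 ± 0.08 did not pass (adjusted p = 0.0602). The ubiquitin receptor Psmd4 was at 0.16 and overlapped. Psmd2, Psmd3, Psmd8 and Psmd11 were the lowest, at 0.08, 0.08, 0.10 and 0.09. Psmd13 and Psmd6 were 0.25 and 0.22.

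The activators and the inhibitor bind the ends of the core in place of the 19S particle or beside it. They gave no called gene among 6, against 9.04% of all genes. At an unadjusted p under 0.05, 3 of the 6 were higher and 0 lower, against 12.9% of all genes higher. DESeq2 called Psme2 and Psme2b higher, against 5.17% of all genes. These 2 were also called with no filter on low counts and without MCH replicate 1. With a trend of transcript length and GC content removed, Psme2, Psme2b and Psme3 were all called higher. Psme1 and Psme2 code for the alternating subunits of the interferon-induced PA28 ring. Psme2 had 29.2, 36.6 and 40.0 CPM with MCH, against 28.1, 22.2 and 24.9 CPM in Control. MCH replicate 1 lay only just above Control replicate 1, and the log2 fold change was 0.49 ± 0.14 (adjusted p = 0.0667). Its partner Psme1 was at 0.04 with overlapping groups, and at -0.044 without MCH replicate 2.

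Psme2b, another mouse gene whose transcript is 99.4% identical to that of Psme2 over 794 aligned bases, had 69.2, 80.7 and 87.9 CPM with MCH, against 66.5, 56.5 and 57.8 CPM in Control. Its log2 fold change was 0.40 ± 0.11 (adjusted p = 0.0600). Reads of such near-identical genes may be split between them by the counting, which is not described in the sources used here. The sum of both genes gave 0.42 ± 0.11 (adjusted p = 0.0549).

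Psme3, the nuclear PA28 gamma subunit, had 119, 116 and 114 CPM with MCH, against 97.9, 106 and 98.9 CPM in Control. All MCH libraries were above Control, and 0.21 ± 0.06 did not pass (adjusted p = 0.0713). Psme4, the large activator PA200, was at -0.08 ± 0.07 (adjusted p = 0.539), and Psmf1, the inhibitor protein, was at -0.06. The groups overlapped in both.

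Of the assembly factors, 3 of 7 rose, against 3.64% of all genes, with a median of 0.22 over the 7. Psmg1 to Psmg4 code for the chaperones that build the alpha ring, Psmg1 pairing with Psmg2 and Psmg3 with Psmg4. Psmg4 had 38.4, 52.4 and 46.8 CPM with MCH, against 32.3, 30.5 and 33.5 CPM in Control. MCH replicate 1 was the nearest to Control but above it, and Psmg4 rose by 0.51 ± 0.12 (adjusted p = 0.0373), the largest change of the proteasome genes that were called. Its partner Psmg3 had 26.2, 27.3 and 27.8 CPM with MCH, against 21.4, 18.9 and 18.8 CPM in Control, and rose by 0.46 ± 0.09 (adjusted p = 0.0215).

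Psmg2 had 43.8, 51.9 and 48.4 CPM with MCH, against 39.4, 33.6 and 37.6 CPM in Control. It rose by 0.38 ± 0.10 (adjusted p = 0.0491), just inside the threshold. Its partner Psmg1 was at 0.22 ± 0.13 and overlapped (adjusted p = 0.315). The chaperones of the 19S base did not pass: Psmd10 and Psmd9 were 0.11 and 0.07. Psmd5 was at -0.21 ± 0.30 (adjusted p = 0.706), the lowest of all members. Its Control libraries spread from 36.1 to 73.6 CPM, and its MCH libraries from 36.6 to 53.0 CPM. Without Control replicate 1, at 73.6 CPM, the log2 fold change was 0.14.

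Psmc3ip was the member with the largest log2 fold change and belongs to no proteasome particle. It had 15.3, 22.7 and 18.8 CPM with MCH, against 12.8, 11.7 and 12.5 CPM in Control. The groups did not overlap, and it rose by 0.62 ± 0.15 (adjusted p = 0.0433). The pseudogenes Psmb6-ps2 and Psmb7-ps2 were too low to test, with 0 to 1 and 5 to 14 reads per library.

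The members are short genes, and in these libraries short transcripts were on the whole higher with MCH. The median length of the principal transcript was 1408.5 bases for the tested members and 2700 bases for all genes, with a GC content of 50.1% and 50.5%. Among genes with transcripts up to 1000 bases, the median log2 fold change was 0.40 for the 9 members and 0.13 for all. From 1000 to 1500 bases it was 0.25 for 17 members and 0.09 for all, and from 1500 to 2000 bases 0.20 for 11 members and 0.05 for all. From 2000 to 3000 bases it was 0.21 for 7 members and 0.01 for all. The 4 longer members, Psmd1 among them, had medians of -0.06 (3 members of 3000 to 5000 bases) and -0.08 (1 member), against -0.04 and -0.12 for all genes of these lengths. With a trend of length and GC content removed in the fit, 14 members were called higher, against 5.22% of all genes, and 8 of them were among the 13. The 5 that lost their call were Psma1, Psmc6, Psmd12, Psmd14 and Psmg2, at 0.11, 0.15, 0.13, 0.17 and 0.24, and Psma4 kept its call at 0.24. The 6 called with the trend removed and not without were Psmb4, Psmb5, Psmd7, Psme2, Psme2b and Psme3. In that fit the median of the members was 0.15 and 41 of 48 were above 0.

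**Figure D4:**
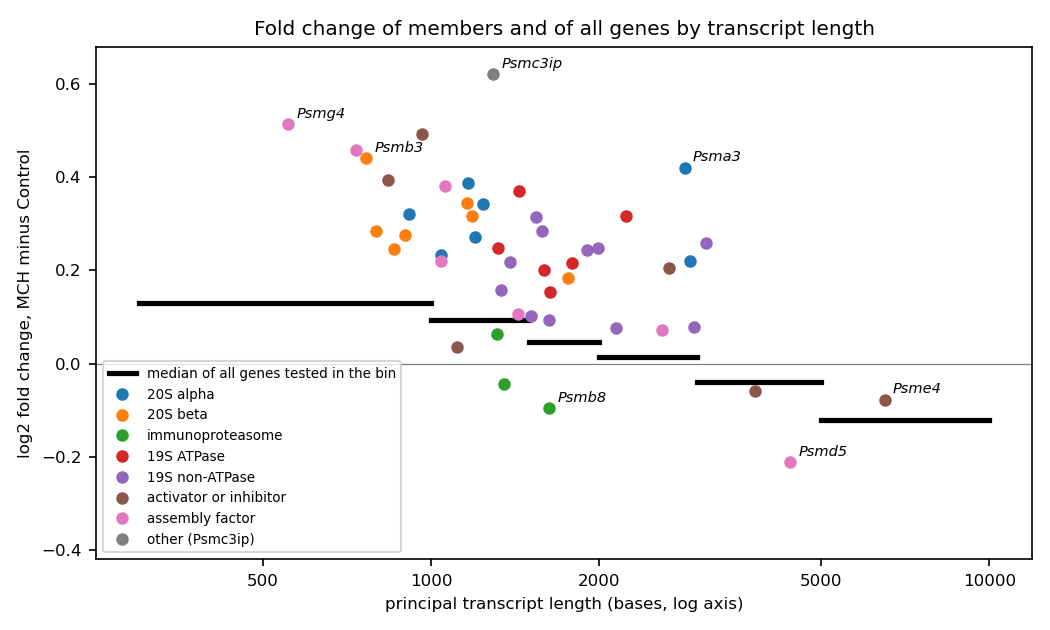
Log2 fold change of each tested member (y axis, MCH minus Control) by length of its principal transcript (x axis, log scale), coloured by particle; black bars are medians of all genes in a length class, drawn to arbitrary ends for the shortest and longest class. Members lie above the bar of their class in the core and 19S groups, and the immunoproteasome genes lie below it.

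RNAs that stay in the nucleus, listed as a mark of RNA quality, were lower with MCH. Neat1, Malat1 and the other RNAs of that list summed to 1933, 1824 and 1821 CPM in the MCH libraries, against 2970, 2937 and 2471 CPM in Control. Of 3 tested, 2 fell, against 5.4% of all genes. Mesenchymal stromal markers summed to 10298, 9496 and 9740 CPM with MCH, against 13256, 13355 and 14111 CPM in Control. Of the 12, 6 fell, against 5.4% of all genes. What part these differences have in the values of the members was not tested.

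Genes that work beside the proteasome were called in both directions. Of 16 tested proteins that bind it or carry substrates to it, 2 rose and 2 fell, against 3.64% and 5.4% of all genes. Their median was 0.09, and 10 of the 16 were above 0, against 50.3% of all genes. Usp14, a deubiquitinase held at the 19S particle, had 101, 98.7 and 96.99 CPM with MCH, against 78.4, 79.8 and 80.0 CPM in Control, and rose by 0.32 ± 0.06 (adjusted p = 0.0162). Txnl1, a thioredoxin-like protein bound to the 19S particle, rose by 0.38 ± 0.07 (adjusted p = 0.0158). Midn, which brings nuclear proteins to the proteasome without ubiquitin, fell by 0.35 ± 0.07 (adjusted p = 0.0228), and Zfand2a, an arsenite-induced cofactor, fell by 0.33 ± 0.08 (adjusted p = 0.0492). Each of these 4 kept its call in 1 or 2 of the 6 fits with a library left out, and Zfand2a did not pass with RLE scaling or limma-voom.

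Of 8 tested genes of proteasome assembly and expression, none rose and 1 fell, against 3.64% and 5.4% of all genes. At an unadjusted p under 0.05, 1 was higher, against 12.9% of all genes, and 1 was lower. DESeq2 and limma-voom also called 0 higher. Ddi2, the protease that activates the transcription factor Nfe2l1, had 37.5, 33.5 and 34.6 CPM with MCH, against 47.1, 49.9 and 53.5 CPM in Control. It fell by 0.51 ± 0.08 (adjusted p = 0.0127), and 4 of the 6 fits with a library left out gave the same call. Nfe2l1 itself, which drives proteasome genes when the proteasome is impaired, had 41.0, 23.2 and 27.3 CPM with MCH, against 29.9, 50.2 and 371 CPM in Control. Control replicate 3 stood far from the other 5 libraries, so the log2 fold change of -2.30 ± 1.14 (adjusted p = 0.285) became -0.39 without it. Pomp, the maturation factor of the beta ring, had 62.4, 89.9 and 76.6 CPM with MCH, against 76.7, 52.2 and 49.4 CPM in Control, with overlap (0.36 ± 0.21; adjusted p = 0.336). Akirin2, which brings proteasomes into the nucleus, was at 0.25 (adjusted p = 0.0854).

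Of 17 tested genes for ubiquitin and its activation none was called, against 9.04% of all genes. Their median was 0.19. Of the 17, 14 were above 0, against 50.3% of all genes. At an unadjusted p under 0.05, 5 were higher and 0 lower, against 12.9% of all genes higher. DESeq2 called 1 of the 17. The smallest p-values were those of the cullins Cul1 and Cul3, scaffolds of ubiquitin ligases, at 0.19 and 0.38 (adjusted p = 0.0659 and 0.0756), and of the ubiquitin gene Rps27a, at 0.37 (adjusted p = 0.115). Of 10 tested genes of the p97 unfoldase, which pulls ubiquitinated proteins out of complexes for the proteasome, 1 rose, against 3.64% of all genes. The gene that rose was Vcp, p97 itself. It had 474, 486 and 483 CPM with MCH, against 414, 405 and 416 CPM in Control. It rose by 0.22 ± 0.05 (adjusted p = 0.0422), and 1 of the 6 fits without a library gave that call. The median of the 10 was 0.07.

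Levels between genes depended on the length used. On the deposited FPKM the tested proteasome genes ran from Psmb9, at 1.73 FPKM with MCH and 1.80 FPKM in Control, to Psmb1, at 532 FPKM with MCH and 472 FPKM in Control. Per kilobase of principal transcript Psmb9 was again the lowest, at 8.11 CPM per kilobase with MCH and 8.36 in Control. The highest was then Psmb6, at 401 CPM per kilobase with MCH and 330 in Control, above Psmb4 at 341 with MCH and 274 in Control, and Psmb1 at 315 with MCH and 278 in Control. Psma2 had the highest FPKM of the alpha ring, at 151 with MCH and 131 in Control. Per kilobase of transcript it was at 49.3 CPM with MCH and 42.3 in Control, well below Psma7 at 278 with MCH and 223 in Control. Psmc1 and Psmd7 led the ATPases and non-ATPases on FPKM, while Psmc5 and Psmd8 led them per kilobase of transcript. Psma3 was the lowest of the alpha ring on both scales, at 12.4 FPKM with MCH and 9.32 FPKM in Control.

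The loci of 16 members overlap another annotated gene, 13 of them on the opposite strand, and reads of such genes cannot be told apart where the counting did not use strand. Of the called members these include Psma3, Psma4, Psmb7, Psmd1, Psmd12 and Psmc3ip. The immunoproteasome genes, and so their ratios, share this limit. On the opposite strand, Psmb10 overlaps Gm16156 by 2665 bases, Psmb8 overlaps Gm20496 by 2139 and Psmb9 overlaps Tap1 by 212. Psme2b overlaps Gm12185 by 837 bases on the same strand.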

How the data were processed

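Polyadenylated RNA of 3 MCH and 3 Control samples was sequenced. The authors deposited, for each gene, raw read counts and FPKM, and beside them the p-values and q-values of their own test, per the file headers. Per the submitters' processing notes, the build was GRCm38 (mm10). The sources used here do not give the aligner, counter, annotation, strand setting or the test the authors ran. The Control columns do not say Control in their names. They lack MCH in their names, and Control is the single remaining group; all directions rest on this reading.

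In R 4.3.3, edgeR 4.0.16 tested the counts after TMM scaling, with filterByExpr (minimum count 10, minimum total 15). The quasi-likelihood fit was robust, with group as its term, two-sided tests and Benjamini-Hochberg adjustment at 0.05 over all 13662 genes tested (5691 left out). Between libraries of a group, edgeR's common coefficient of biological variation came to 0.174. CPM are TMM scaled. An SE is the unshrunken log2 coefficient, without its sign, divided by the root of its F value. The step was tested on simulated counts. Alternatives used DESeq2 1.42.0, limma 3.58.1 (voom, and log2(FPKM + 1)), other scalings and filters, a replicate block, a trend of transcript length and GC content, and the fit without each library in turn. Ratios per kilobase of principal transcript (GENCODE M21) and the sum of Psme2 and Psme2b were added after seeing the data.

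Named genes were all called members, the highest and lowest of each particle by log2 fold change and by FPKM, the catalytic pairs, members too low to test, and in each list the called genes and up to 3 with the smallest p. The members and lists were chosen with earlier results of these data known. Within a group, libraries differed well beyond sampling noise (chi-square over its degrees of freedom, 16.0 to 27.1), so none was counted as a copy. Promoters came from RefSeq on GRCm38.p6, and transcripts were aligned with Biopython 1.88. The value of 1 gene of the antigen processing list is not reported here.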

Additional observations from a re-analysis of the deposited data

How the results depend on the processing

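No alternative called a member lower. The count of 13 members higher was 13 with RLE scaling, upper-quartile scaling and a filter of 1 CPM in 3 libraries, 14 with limma on log2(FPKM + 1), 14 with the length and GC trend removed, 16 with no filter and 9 with a non-robust fit. It was 8 with limma-voom and 18 with DESeq2, which held all 13. Of all genes, 3.16% were called higher with limma-voom, 5.17% with DESeq2, 2.7% with no filter and 3.1% with a non-robust fit. In the other fits named here it was 3.26% (upper-quartile scaling) to 5.22% (length and GC trend removed). Leaving out a library gave 0 to 26 members higher, 65 to 722 genes higher and 256 to 867 genes lower.

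The labels do not say whether same-numbered samples are pairs. Deviations of same-numbered libraries from their group mean correlated at -0.16, -0.04 and -0.01. Deviations of 3 libraries sum to 0 within a group, so these values cannot exclude pairing. With the replicate number as a block, 0 members were called, 22 being higher at an unadjusted p under 0.05. 28 genes were higher and 151 lower, and 43 of 48 members kept a log2 fold change above 0.

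Directions that turned belonged to members not called. Once length and GC trends were taken out, Psmd10 was at -0.059 and Psme1 at -0.033. Over the fits with a library left out, Psmb8 ran from -0.20 (no MCH replicate 2) to 0.023 (no MCH replicate 1), and Psmf1 from -0.15 (no MCH replicate 3) to 0.019 (no MCH replicate 2). Psmb10 ran from -0.031 (no MCH replicate 2) to 0.12 (no Control replicate 3), Psme1 from -0.044 (no MCH replicate 2) to 0.082 (no MCH replicate 1), Psmd5 from -0.41 (no Control replicate 2) to 0.14 (no Control replicate 1), and Psmb9 from -0.14 (no Control replicate 2) to 0.067 (no Control replicate 1). The cause was not tested. The ratios of inducible to constitutive subunits had the same sign under all 9 alternatives each, but not all of these could turn it. Library scaling and fixed gene lengths cancel out of the difference between groups. For Psmb8 to Psmb5 and Psmb10 to Psmb7 the groups did not overlap, so leaving out a library could not turn the sign either. With 3 libraries a group, genes near the count minimum of 10 are limited by depth.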
